A study of Saccharomyces cerevisiae with 8 samples.

Results

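A set of 330 binding sites of the meiotic RNA-binding protein Pho92 was almost wholly lost in an ime4 mutant. The 330 sites come from 105079 regions, made by joining touching peaks on the same strand in the 2 ime4 mutant and 2 Pho92-HTP peak lists. Lost sites were chosen by these scores: a region counted when its normalized peak score was below 0.02 in both ime4 mutant libraries and above 0.9 in both Pho92-HTP libraries. Regions on contig NCSL01000092.1 were left out. Outside that contig 822 regions were above 0.9 in both Pho92-HTP libraries. The lost sites are 40.1% of them. The other strong sites serve for comparison: 195 kept sites were above 0.9 in all 4 libraries, and 297 sites with residual binding lay in between. Scores of these 4 libraries are therefore given as a description, without a test.

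IME4 encodes the methyltransferase that places N6-methyladenosine, m6A, on yeast mRNA during meiosis. Pho92 carries a YTH domain, the fold that recognises m6A, and is the YTH protein of budding yeast. The series asks which RNA contacts of this reader need the mark. CRAC answers such a question by crosslinking protein to RNA with UV in living cells, purifying the tagged protein under denaturing conditions, and sequencing the RNA that stays attached.

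All groups were diploid SK1 yeast in which IME1, the activator of meiotic entry, was driven by a copper-inducible promoter. Copper sulfate at 50 μM was given after 2 h in sporulation medium, and cells were taken at 5 h, which is 3 h after induction. The ime4 mutant group carried Pho92-HTP, Pho92 with an affinity tag, and an ime4 mutation, called ime4 mutant in the labels and ime4ko in the peak lists. The Pho92-HTP group carried the tagged protein with IME4 intact. Both were irradiated at 254 nm for 80 s. The group without UV had the genotype of the Pho92-HTP group. The untagged wild type was irradiated and had no tag. Each group held 2 libraries, which the series text calls biological replicates. Because IME1 was induced artificially, these cells model synchronous early meiosis rather than an unaltered culture.

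Peak lists held 47377 and 60778 peaks in the ime4 mutant, 66344 and 41604 in Pho92-HTP, 2925 and 2462 without UV and 2659 and 2138 in untagged cells. The score of a peak is proportional to its squared height over its width, a relation worked out from the values. Heights are given as read equivalents, the number of overlapping reads that would give that smoothed height. The depth of each library in total reads is unknown, and sites carry no counting error here. Normalized scores are scaled to a fission yeast spike-in by 1 factor per library: 1.73 and 1.01 in the ime4 mutant, and 1 and 5.92 in Pho92-HTP. Pho92-HTP replicate 2 was thus the thinnest of these 4. A 32-nt peak reached 0.9 there with 82.9 read equivalents, against 202 in Pho92-HTP replicate 1. The upper limit of 0.02 stood for 22.9 and 30.0 read equivalents in the 2 ime4 mutant libraries. The positions are on contigs of an SK1 assembly, and the only genome at hand was that of strain S288C. Sites are therefore named by contig and position as the lists give them, without gene names or sequence.

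Together the lost sites scored 1.02 and 1.06 in the ime4 mutant libraries and 5111 and 5093 in the Pho92-HTP libraries. They took up 0.130% and 0.144% of all summit read equivalents in the ime4 mutant, and 6.81% and 6.42% in Pho92-HTP. Both Pho92-HTP libraries therefore gave these sites nearly the same total after scaling, although their factors differed. Among the controls, the share of summit height was 0.189% and 0.503% for the untagged wild type. It was 0.0651% and 0.0538% for the group that was not irradiated. The ime4 mutant shares were thus below the former and above the latter, and do not measure binding above background.

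A typical lost site was of moderate strength. Its score in ime4 mutant replicate 1 had a median of 0.000795 and a highest value of 0.0187, and in replicate 2 a median of 0.00125 and a highest value of 0.01996. The median was 3.65 in Pho92-HTP replicate 1 (quartiles 1.85 and 9.73) and 4.04 in replicate 2 (quartiles 1.94 and 10.2). The highest scores were 893 and 420 in the Pho92-HTP libraries. By design the genotypes do not overlap at any of the 330 sites. Both Pho92-HTP libraries were above 10 at 60 sites and above 100 at 7. At 113 sites the lower Pho92-HTP score was at most 1.8, within a factor of 2 of the limit. Both ime4 mutant libraries were below 0.01 at 268 sites and below 0.001 at 102. Kept sites had median scores of 26.1 and 18.2 in the ime4 mutant libraries, against 18.6 and 37.3 in Pho92-HTP. Sites with residual binding had medians of 0.105 and 0.0723 in the ime4 mutant libraries, against 5.36 and 4.75 in Pho92-HTP.

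**Figure D1:**
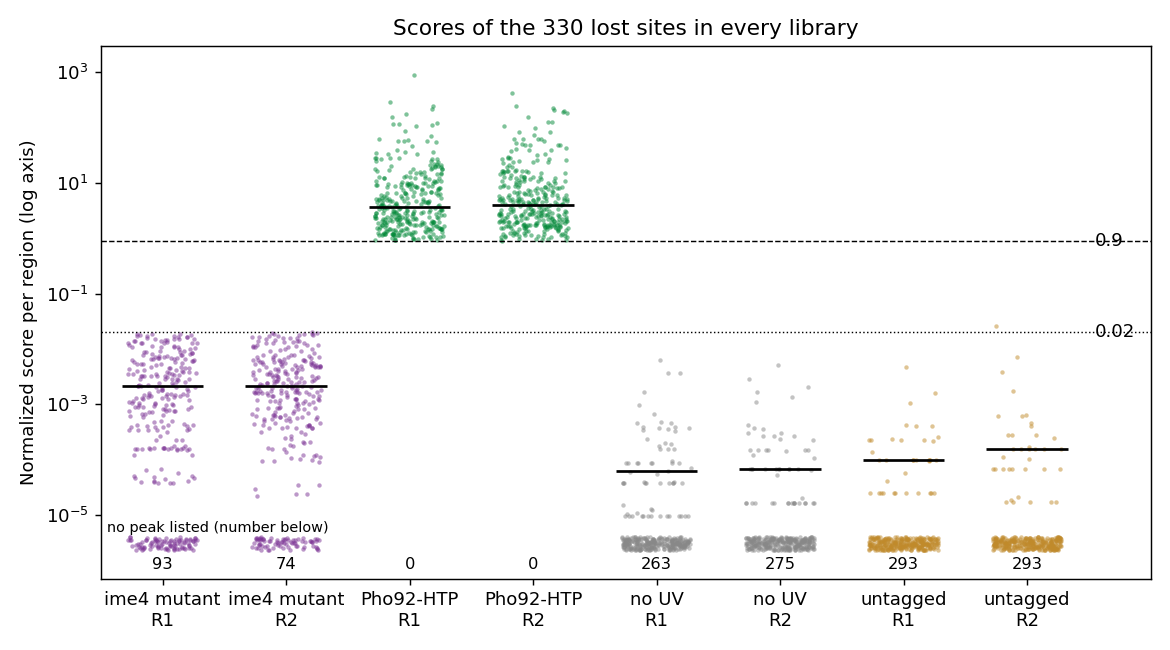
Normalized score (log axis) of each of the 330 lost sites in the 8 libraries; black bars are medians over sites with a listed peak, and sites with no listed peak are drawn at the bottom with their number. Dashed and dotted lines mark the limits of 0.9 and 0.02 that chose the sites. Without UV 263 and 275 sites had no peak, and in untagged cells 293 in each library.

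Where the ime4 mutant had a peak at a lost site, its median summit height was 7.82 read equivalents in replicate 1 and 10 in replicate 2. The median summit in Pho92-HTP was 405 read equivalents in replicate 1 and 177 in replicate 2. A mutant peak was listed in both libraries at 201 sites, in 1 library at 91 and in neither at 38. Over the 201 sites the scaled summit in the ime4 mutant was lower by a median factor of 43.3, with quartiles of 25.6 and 79.3 and a range of 8.75 to 1075. The largest factor, in the region 43076 to 43119 of NCSL01000014.1, rests on mutant summits of 1.01 and 4.42 read equivalents, so its size is poorly known. In Pho92-HTP the 38 sites without a mutant peak had median scores of 5.00 and 4.60, against 3.18 and 4.15 at the 201 sites with both. Strength in Pho92-HTP and the remaining score in the ime4 mutant went with each other little (Spearman rho 0.05 across the 330 sites). These sites share libraries, and the limit of 0.02 narrows the range of the mutant scores.

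No listed peak does not always mean an empty place. Of the 330 sites, 272 had no ime4 mutant peak above 0.02 within 50 nt outside the region on the same strand, and 58 had one. Of the 38 sites with no mutant peak, 18 had such a neighbour. At 2 of these 38 a mutant neighbour exceeded 0.9. Next to NCSL01000005.1 at 130485 to 130515 (minus strand) the mutant libraries held neighbours of 56.5 and 61.6, while the site itself had 86.1 and 48.8 in Pho92-HTP. Pho92-HTP replicate 2 also held a neighbour there, of 53.2. Next to NCSL01000011.1 at 89616 to 89647 (plus strand) they held 0.0726 and 2.85, and the site scored 14.8 and 10.8 in Pho92-HTP. The next 3 by mutant neighbour were NCSL01000024.1 at 2458 to 2491, with 0.610 and 0.384, NCSL01000036.1 at 69256 to 69284, with 0.430 and 0.536, and NCSL01000005.1 at 75064 to 75095, with 0.246 and 0.505. For these 5 the lists place mutant signal beside the Pho92-HTP peak. When peaks within 50 nt were joined before the limits were applied, 169 regions met them, and 160 of the 330 sites lay in such regions.

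The 10 sites with the highest score in their lower Pho92-HTP library were as follows. On the minus strand of NCSL01000050.1, the region 4801 to 4855 scored 0.00109 and 0.00404 in the ime4 mutant and 893 and 420 in Pho92-HTP. Its summits were 4.73 and 13.0 read equivalents in the ime4 mutant and 6257 and 1763 in Pho92-HTP. The 4 control libraries there reached at most 0.000626, below both ime4 mutant scores.

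On the minus strand of NCSL01000063.1, the region 27633 to 27666 scored 0.0106 in ime4 mutant replicate 1, had no peak in replicate 2, and scored 295 and 190 in Pho92-HTP. NCSL01000013.1 at 275026 to 275058 (plus strand) had no mutant peak and scored 218 and 185 in Pho92-HTP, with mutant neighbours of 0.198 and 0.504 within 50 nt. On the minus strand of NCSL01000014.1, the region 43076 to 43119 had 4.97e-05 and 0.000410 in the ime4 mutant and 180 and 246 in Pho92-HTP. At these 3 sites the Pho92-HTP replicates lay within a factor of 2 of each other.

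NCSL01000002.1 at 425217 to 425278 (plus strand) scored 0.0152 and 0.00465 in the ime4 mutant and 123 and 199 in Pho92-HTP. On the minus strand of NCSL01000049.1, the region 56200 to 56235 scored 0.0126 and 0.00165 in the ime4 mutant and 116 and 208 in Pho92-HTP. NCSL01000017.1 at 129701 to 129744 (plus strand) scored 0.00474 and 0.00477 in the ime4 mutant and 116 and 125 in Pho92-HTP. The first 2 of these had no peak in any control library, and the last had one of 3.79e-05 in no-UV replicate 1 alone.

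NCSL01000025.1 at 115261 to 115324 (plus strand) scored 0.00680 and 0.00213 in the ime4 mutant and 110 and 83.8 in Pho92-HTP. NCSL01000087.1 at 2437 to 2470 (plus strand) had no mutant peak and scored 244 and 83.6 in Pho92-HTP. NCSL01000018.1 at 120907 to 120945 (plus strand) scored 0.00757 and 0.00585 in the ime4 mutant and 153 and 63.4 in Pho92-HTP. Over the 10 sites the region was 32 to 63 nt long.

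The limits cut through a continuous range. Just inside 0.9 were NCSL01000020.1 at 167578 to 167647 with a lower Pho92-HTP score of 0.9004, NCSL01000021.1 at 17910 to 17968 with 0.925 and NCSL01000002.1 at 159892 to 159923 with 0.926. Just outside were NCSL01000022.1 at 157227 to 157279 with 0.895, and NCSL01000008.1 at 333153 to 333248 with 0.889 and at 54411 to 54449 with 0.884. Just inside 0.02 the higher mutant score was 0.01996 at the NCSL01000020.1 region, 0.0196 on NCSL01000002.1 at 244388 to 244458 and 0.0190 on NCSL01000013.1 at 35095 to 35131. Just outside it was 0.0203 on NCSL01000009.1 at 234537 to 234592, 0.0206 on NCSL01000015.1 at 183624 to 183705 and 0.0208 on NCSL01000002.1 at 258389 to 258451. Sites on either side of a limit thus differed by a few percent, and the class has no natural edge.

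The Pho92-HTP replicates were alike at lost sites. The log2 ratio of replicate 2 to replicate 1 had a median of 0.08 (SD 1.08 across sites), replicate 2 was the higher at 175 of 330 sites, and the replicates were within a factor of 2 at 225. Across sites, scores of both replicates had a Pearson r of 0.82 on the log2 scale, a description of sites that share both libraries. Sites with residual binding had a median log2 ratio of 0.04 (SD 1.01) and a Pearson r of 0.92, so the replicates were at least as alike there. At kept sites it was 1.34, with replicate 2 the higher at 143 of 195. The scaling that brought the replicates level at lost sites thus left kept sites higher in replicate 2, and the reason was not tested.

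The 3 lost sites whose Pho92-HTP replicates differed most were all higher in replicate 2. These were 262521 to 262566 of NCSL01000015.1 with 1.48 and 16.7, 108410 to 108455 of NCSL01000024.1 with 15.8 and 127, and 46925 to 47046 of NCSL01000004.1 with 19.9 and 154.

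**Figure D2:**
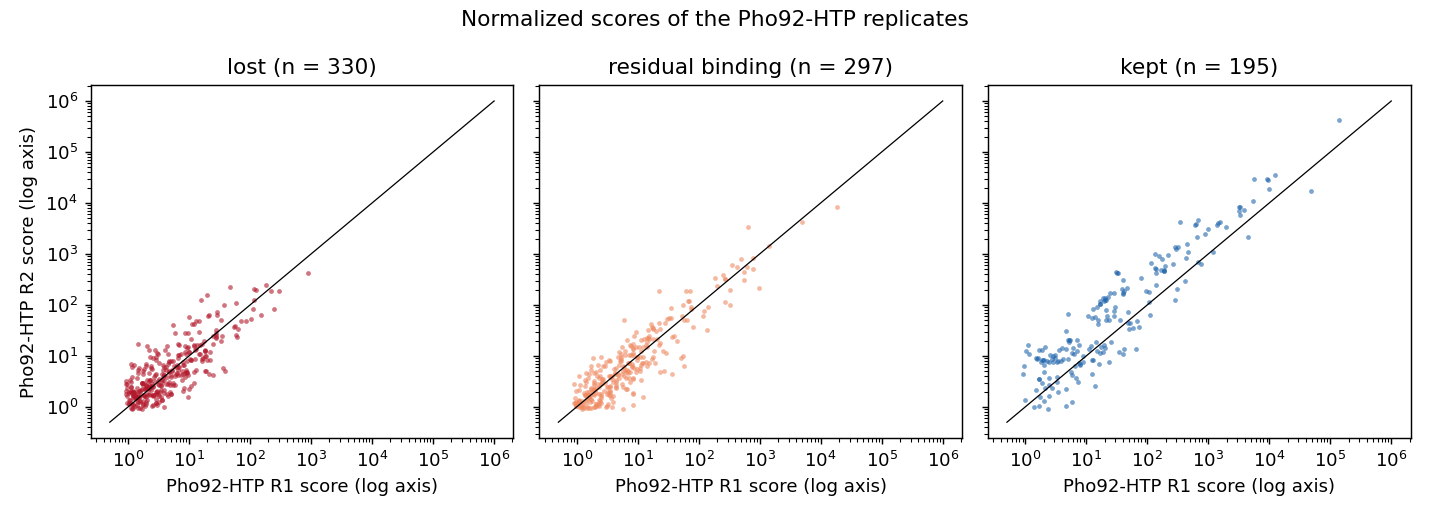
Normalized scores (log axes) of Pho92-HTP replicate 2 against replicate 1 for lost sites, sites with residual binding and kept sites; each point is a site and the line marks equal scores. Lost sites scatter around the line (median log2 ratio 0.08), and kept sites lie mostly above it (1.34).

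Pho92-HTP peaks at lost sites were single and sharply placed. A lone peak made up the region in 326 sites in replicate 1 and 325 in replicate 2. Peak centres of both replicates lay within 1 nt at 285 of 330 sites and never more than 9 nt apart. Of the 297 sites with residual binding, 286 and 283 had a lone peak, so single peaks were not particular to lost sites. Centres there lay within 1 nt at 191 sites and at most 50 nt apart, and the median distance was 1 nt in both classes. Peak width had a median of 32 nt in both Pho92-HTP libraries with quartiles of 31 and 32 nt. The median over all listed peaks was 31 nt in replicate 1 and 32 nt in replicate 2, so the width does not mark these sites. Peaks that remained in the ime4 mutant were less closely placed: 70 of 237 in replicate 1 and 70 of 256 in replicate 2 lay within 5 nt of the Pho92-HTP centre. Their centres lay a median of 11.5 nt (replicate 1) and 11 nt (replicate 2) from the Pho92-HTP centre, and a median of 12 nt from each other at the 201 sites with both. At sites with residual binding these distances were 7.5, 6.5 and 6 nt, and at kept sites 1, 0.5 and 1 nt. Heights differ between the classes, with mutant medians of 7.82 and 10 read equivalents at lost sites and 827 and 921 at kept sites. Sites with residual binding had 54.5 and 63.0. How far height sets the scatter was not tested.

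Since regions join peaks of all 4 libraries, displaced mutant peaks make a region longer. Lost regions had a median length of 50 nt (quartiles 37 and 63.8, range 26 to 130), and kept regions one of 35 nt. Regions with residual binding were as long as lost ones, with a median of 52 nt (quartiles 40 and 64, range 27 to 144). The widest were NCSL01000029.1 at 85882 to 86012, NCSL01000026.1 at 31588 to 31716 and NCSL01000004.1 at 46925 to 47046. The narrowest were NCSL01000045.1 at 66486 to 66512 and at 66528 to 66556, and NCSL01000036.1 at 69256 to 69284, all 3 without a mutant peak.

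Lost sites lay on both strands alike, with 164 on the plus and 166 on the minus strand, and each was stranded. A peak on the opposite strand overlapped 8 and 12 of the 330 sites in the ime4 mutant libraries and 14 and 6 in the Pho92-HTP libraries. None of these reached 0.02, and the highest was 0.00635. The nearest strong site on the opposite strand was more than 100 nt away from every lost site. The sites were spread over 64 contigs, and the 5 richest contigs held 78 of them. Over the 37 contigs with strong sites whose listed peaks reach beyond 100 kb, the density was a median of 2.94 lost sites per 100 kb, with a range of 0 to 6.68. The lost share of strong sites ranged from 30.8% on NCSL01000008.1 (12 of 39) to 55.6% on NCSL01000003.1 (15 of 27) over the 6 contigs with most lost sites. Other contigs lay further out, with 2 of 25 on NCSL01000032.1, 0 of 17 on NCSL01000027.1 and 9 of 12 on NCSL01000025.1.

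Lost sites seldom had a close neighbour of their own class. The gap to the nearest other lost site on the same strand had a median of 17241 nt, and 28 of 330 sites had no other on their contig and strand. For sites with residual binding the median gap was 4749 nt and 32 of 297 had no other, and for kept sites 29155 nt and 35 of 195. Lost sites were thus the least often close at short range, while the median gap was longer at kept sites. Another lost site was within 100 nt for 12 sites (3.64%) and within 500 nt for 40 (12.1%). The same shares for sites with residual binding were 22.2% and 40.1%, and for kept sites 17.4% and 25.1%. The classes differ in number, and no test over sites was made, since sites of the same libraries are not replicates. Any strong site on the same strand was within 100 nt for 29 lost sites (8.79%), for 94 sites with residual binding (31.6%) and for 47 kept sites (24.1%). A kept site was within 1000 nt of a lost site in 3 cases.

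The 12 close sites form 6 pairs, and no run was longer than a pair. The strongest pair by summed score was on NCSL01000030.1 (plus strand), where 93052 to 93082 had no mutant peak and scored 3.45 and 2.60 in Pho92-HTP. Its partner at 93102 to 93150 scored 0.0114 and 0.00649 in the ime4 mutant and 3.43 and 2.14 in Pho92-HTP. On NCSL01000005.1 (plus strand), 192618 to 192677 scored 0.0184 and 0.00382 in the ime4 mutant and 2.43 and 5.41 in Pho92-HTP. Its neighbour at 192744 to 192783 had no peak in ime4 mutant replicate 1, scored 9.18e-05 in replicate 2, and had 1.13 and 1.20 in Pho92-HTP. Members of a pair were of like order of strength in Pho92-HTP.

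The next 3 pairs by summed score were similar. NCSL01000010.1 at 108848 to 108883 and at 108975 to 109011 scored 1.06 to 3.16 in Pho92-HTP. Between them lies a further strong site, at 108892 to 108946, with 0.251 and 0.0484 in the ime4 mutant and 118 and 60.4 in Pho92-HTP. The NCSL01000045.1 pair named above as narrow scored 1.27 to 3.21 in Pho92-HTP, and the pair on NCSL01000015.1 at 200310 to 200391 and 200457 to 200533 scored 1.32 to 1.55.

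**Figure D3:**
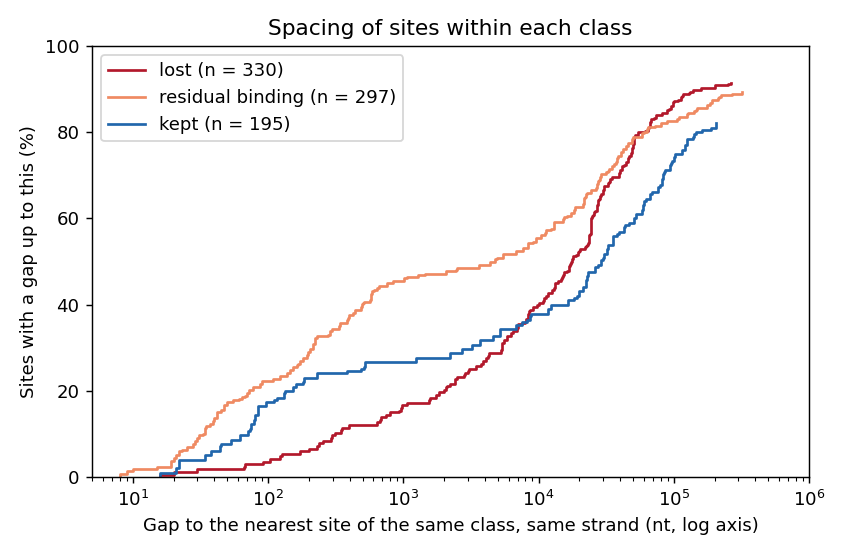
Cumulative share of sites (%) against the gap to the nearest site of the same class on the same strand (nt, log axis). At 100 nt the curve of lost sites is the lowest, with 3.64% of sites, against 22.2% for residual binding and 17.4% for kept sites; curves end below 100% because some sites have no other on their contig and strand.

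Peaks around a lost site were not part of its definition and are set beside its summit as a description. The summit drop is set by the choice of sites, so the contrast cannot show how local the loss was. Same-strand peaks with their centre 100 to 500 nt from the site were summed as scaled height, leaving out peaks inside any lost site. The median sum was 38.7 and 44.7 read equivalents in the ime4 mutant and 80.7 and 75.3 in Pho92-HTP. The mutant libraries were thus lower, by far less than at the summit. On the log2(height + 1) scale, mutant minus Pho92-HTP, the summit differed by a median of -6.28 and the flanks by -0.89 (quartiles -1.72 and -0.21). At all 330 sites the summit difference was the more negative one, a contrast that the choice of sites largely fixes. The same held at 259 of 297 sites with residual binding and at 70 of 195 kept sites. The lower flanks were the more common direction, in 257 of 330 sites, and at 157 sites flanks differed by no more than 1 on the log2 scale. Both mutant libraries were below both Pho92-HTP libraries in the flanks of 187 sites, and above both at 14. At the 297 sites with residual binding these counts were 184 and 15. Flanks were lower at 254 of those 297 and at 102 of 195 kept sites, so lower flanks were not particular to lost sites.

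Few of these flank differences passed a test. By limma 21 of 330 flanks were called lower in the ime4 mutant and 0 higher (adjusted p threshold 0.05). The background was all 961 regions above 0.9 in at least 2 of the ime4 mutant and Pho92-HTP libraries. Of these, 139 belong to none of the 3 classes. Over the 961, 10.1% were called lower and 0.416% higher. At an unadjusted p under 0.05, 92 of the 330 were lower and 0 higher, beside 298 of all 961 in either direction. The share of calls was thus below the background. The median difference over all 961 was -0.61. It was -0.75 for residual binding and -0.10 for kept sites, of whose flanks 28 were empty in all 4 libraries. When peaks inside any strong site were left out, the lost-site median was -0.84, beside -0.39 over all 961 regions. In that setting 0 flanks were called, and 78 of 330 had an unadjusted limma p under 0.05, beside 204 of all 961. With a replicate block, or without spike-in scaling, 0 of the 330 were called, and without any 1 of the 4 libraries 2 or 3 were, in mixed directions. These flank calls were chosen after the data were seen, rest on 2 against 2 libraries, and 53 lost sites share flank positions with another.

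The 3 lost sites with the smallest flank p had large neighbours. The flanks of NCSL01000066.1 at 24344 to 24376 summed to 303 and 294 read equivalents in the ime4 mutant and 15345 and 14268 in Pho92-HTP, a log2 difference of -5.63 with an SE of 0.08 (limma adjusted p = 0.00437). The flanks of NCSL01000005.1 at 75064 to 75095 summed to 757 and 887 in the ime4 mutant and 5215 and 5294 in Pho92-HTP (adjusted p = 0.0121, limma). Those of NCSL01000005.1 at 372698 to 372758 summed to 81.9 and 93.9 in the ime4 mutant and 1109 and 941 in Pho92-HTP (adjusted p = 0.0140, limma). At these 3 the groups did not overlap in the flanks, and whether that belongs with the loss at the site was not tested.

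The share of local signal held by the summit needs no spike-in scaling. Of the height of summit and flanks together, the summit of a lost site held a median of 11.2% and 14.4% in the ime4 mutant and 84.6% and 87.7% in Pho92-HTP. At sites with residual binding the summit held 23.6% and 25.2% in the ime4 mutant and 62.5% and 64.7% in Pho92-HTP. A lower share in the mutant was thus not particular to lost sites. At kept sites the summit held 99.3% and 99.1% in the ime4 mutant and 98.2% and 99.3% in Pho92-HTP. At lost sites the choice of sites by summit score favours this order. Flanks upstream along the RNA were somewhat higher than those downstream in every library. Upstream medians were 16.1 and 20.6 read equivalents in the ime4 mutant and 35.3 and 28.9 in Pho92-HTP. Downstream medians were 13.0 and 16.1 in the ime4 mutant and 28.3 and 24.7 in Pho92-HTP. An upstream peak was listed at 290 and 300 sites in the ime4 mutant and 314 and 281 in Pho92-HTP. The downstream numbers were 260 and 273, and 287 and 258. Less RNA of a transcript and less Pho92 on it cannot be told apart in these data, which hold no RNA abundance.

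**Figure D4:**
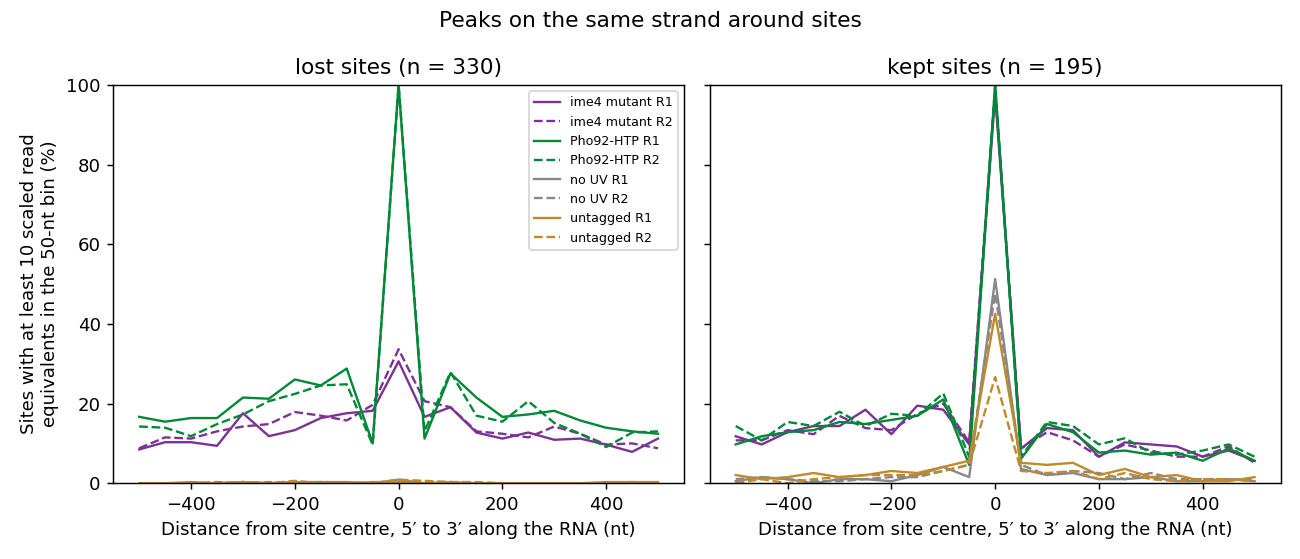
Share of sites (%) with at least 10 scaled read equivalents of same-strand peaks in bins of 50 nt, against the distance of the bin from the site centre (nt, 5′ to 3′), for lost sites and kept sites in all 8 libraries. At lost sites the central bin reaches 30.6% and 33.6% in the ime4 mutant libraries, against 100% in both Pho92-HTP libraries.

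**Figure D5:**
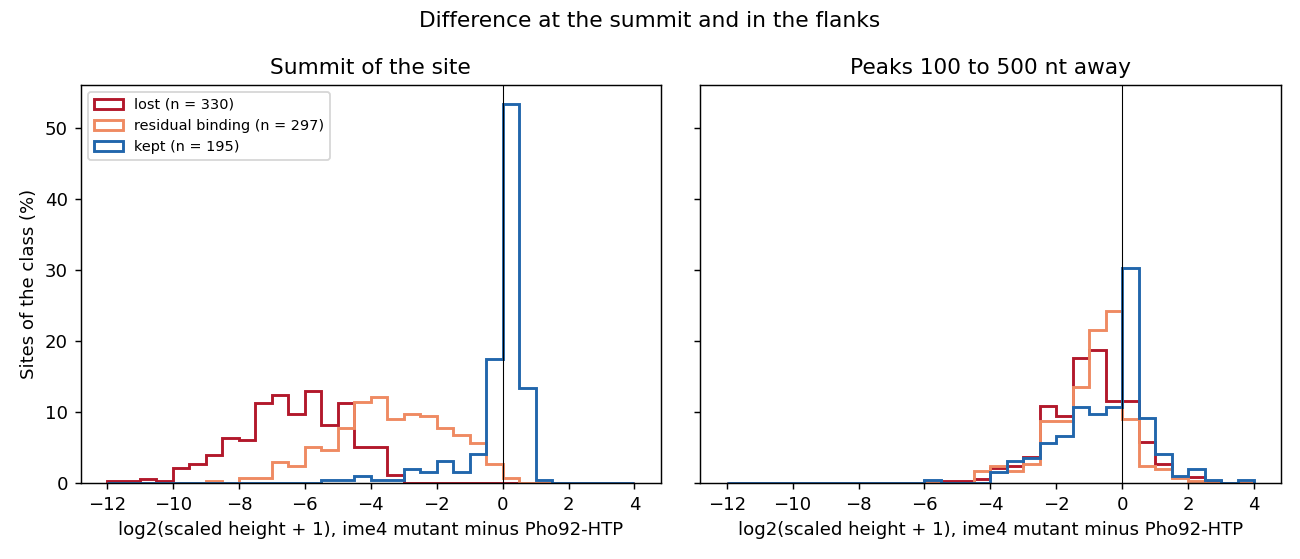
Distribution over sites (%) of the difference in log2(scaled height + 1), ime4 mutant minus Pho92-HTP, at the summit and in same-strand peaks 100 to 500 nt away, for the 3 classes. Lost sites centre at -6.28 at the summit, a value set by their choice, and at -0.89 in the flanks.

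The controls were nearly silent at lost sites, in lists that held far fewer peaks in all. No peak was listed in any of the 4 control libraries at 186 of 330 sites (56.4%), against 73 of 297 sites with residual binding (24.6%) and 2 of 195 kept sites (1.03%). Without UV a peak was listed at 67 and 55 lost sites, with median scores of 6.18e-05 and 6.80e-05 where listed, and at 23 sites in both libraries. Untagged cells had a peak at 37 sites in each library, with medians of 9.96e-05 and 0.000153 where listed, and at 7 sites in both. These are levels of a few reads. With a minimum overlap of 50% of the region in place of 1 nt, control peaks were listed at 82 sites in place of 144.

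A control score above 0.02 occurred at 1 lost site. NCSL01000008.1 at 39193 to 39249 scored 0.00445 and 0.00594 in the ime4 mutant, 1.03 and 1.99 in Pho92-HTP and 0.0255 in untagged replicate 2, with no other control peak. The next highest control scores were 0.00708 on NCSL01000005.1 at 92277 to 92310 and 0.00618 on NCSL01000005.1 at 130485 to 130515. They were 0.00503 on NCSL01000002.1 at 61149 to 61180 and 0.00380 on NCSL01000013.1 at 224911 to 224947. In each of these 5 the highest control was far below both Pho92-HTP scores, the lowest of which was 1.03.

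The comparison of no UV with untagged cells uses no library that chose the sites, but all 330 lost sites entered it through Pho92-HTP. At 186 of them no control library listed a peak, so no difference could be called there. The counts are thus a description, beside a background that includes kept sites, nearly all with a control peak. By limma on all 8 libraries 1 of 330 lost sites was higher without UV and 0 lower, while over all 964 tested regions 4.88% were higher and 1.45% lower. At an unadjusted p under 0.05, 8 lost sites were higher and 3 lower, beside 162 of all 964 regions in either direction. The site called was NCSL01000016.1 at 199993 to 200049 (minus strand), with 0.000194 and 0.000364 without UV and no peak in untagged cells (log2 difference 3.67, SE 0.68, adjusted p = 0.0338, limma). That call was lost without either no-UV library and with a replicate block, where 0 sites were called. Under the other set of control factors, from the deposited normalization list, 3 sites were called, 2 higher and 1 lower. Of all 964 regions 92 were then called higher and 16 lower. Leaving out untagged replicate 1 or replicate 2 also changed the calls, mostly to lower without UV. The median difference over lost sites was 0 in every setting, a value fixed by the 186 sites with no control peak. With all 8 libraries, 88 lost sites were higher without UV and 56 lower, called or not.

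None of the next 4 passed. NCSL01000024.1 at 2458 to 2491 had no peak without UV, and 0.00159 and 0.000171 in untagged cells (adjusted p = 0.0685, limma). NCSL01000008.1 at 280830 to 280862 had 7.08e-05 and 0.000264 without UV and no untagged peak (adjusted p = 0.110, limma). NCSL01000004.1 at 98133 to 98199 had 0.000352 and 6.60e-05 without UV and no untagged peak (adjusted p = 0.139, limma). NCSL01000026.1 at 93776 to 93859 had none without UV, and 9.53e-05 and 6.81e-05 in untagged cells (adjusted p = 0.221, limma). At these levels of a few reads a difference between the controls was hardly detectable.

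What remained at lost sites in the ime4 mutant is given as a description, since the limit of 0.02 holds these scores down. Both ime4 mutant libraries exceeded all 4 control libraries at 190 of 330 sites, and at 44 sites the highest control reached or passed the higher mutant score, sites listed at 0 throughout included. At the 297 sites with residual binding these counts were 268 and 0, in a class that by its choice holds higher mutant scores. Before scaling, summit heights summed to 1.69e+06 and 2.19e+06 read equivalents in the ime4 mutant libraries. The sums were 421065 and 334161 without UV and 53223 and 35058 in untagged cells. A mutant peak of a few reads exceeds a control with no peak, so the 190 sites do not measure binding above background. Tests of library totals could not help: with 2 against 2 libraries the smallest two-sided exact p is 0.33.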

How the data were processed

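Peaks were listed by the authors per library, without pooling. Per the submitters' processing notes, the tools were Bowtie2 2.4.1 and cutadapt, with ASM294v2 as the build of the fission yeast spike-in. Reads had 75 nt, per the labels. For the peak calling, software and settings are not given in the sources used here. Each peak has a score, h2w per the file headers. A deposited normalized score is that score times a spike-in factor, a ratio per the file headers. The deposited table also gives counts of peaks. In the control sheets the factors are those the table lists for the other control group. The sheets' factors were used (0.428 and 0.746 without UV, 1.13 and 0.771 untagged), with the table's as an alternative.

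Height was taken as the square root of score times width, in units of a single read under Gaussian smoothing (SD 15 nt), a form inferred from the values. At a width of 32 nt, 63.3% to 92.4% of heights per library came within 0.01 of a whole number. Scaled heights use the square root of the factor. Control peaks sharing at least 1 nt were summed per region. Whether coordinates count from 0 or 1 is not stated.

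Groups were compared by limma 3.58.1 (R 4.3.3, mean-variance trend) on log2(score + 2.28e-05), the pseudocount being percentile 5 of all scores, over 964 regions above 0.9 in at least 2 of 8 libraries. All 330 lost sites pass that filter through Pho92-HTP. The flank test used 961 regions of the 4 libraries and log2(height + 1). Comparisons of the ime4 mutant with the controls by limma are not reported, since the choice of sites caps the mutant scores. Adjusted p is Benjamini-Hochberg, threshold 0.05, and the steps were tested on simulated data. Python 3.11.15, pandas 2.3.3, numpy 2.4.6 and matplotlib 3.10.9 were used. The sites named are the extremes of strength, limits, controls, neighbours, width, replicate ratio and p. Members and lists were chosen with earlier results of these data known. The flank analysis was added after seeing the data.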

Additional observations from a re-analysis of the deposited data

How the results depend on the processing

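The number of lost sites, 330, was 217 with a lower limit of 1.8, 169 with peaks joined within 50 nt, 139 without spike-in scaling (129 of them among the 330) and 201 with a mutant peak required in both libraries. It was 268 and 409 with upper limits of 0.01 and 0.05, and 373 to 428 without any 1 of the 4 libraries. Lost sites called between no UV and untagged (1) became 0 with the pseudocount at percentile 25, without a filter, without scaling and in a fit of those 4 libraries, 3 with the table's factors, and 0 to 7 without 1 library. Flank calls (21, all lower) became 53 at 200 to 1000 nt (51 lower, 2 higher) and 52 with peaks inside lost sites kept. Over all 961 regions calls rose too, from 97 lower and 4 higher. They were 178 and 14 in the first setting and 156 and 6 in the second. Flank calls were 0 without scaling and 0 with peaks of strong sites left out. Without 1 library the median flank difference ran from -1.03 to -0.89. The cause was not tested. Replicate numbers share only a number: differences between same-numbered libraries correlated at -0.04 to 0.06 between groups. With a replicate block the calls were 0 between controls and 0 for flanks. Libraries lack total reads, which limits what scores of a few reads can show.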
